A study of Mus musculus with 6 samples.

Results

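The proteasome subunit genes measured here were the 44 genes whose only symbol in the array annotation began with Psma, Psmb, Psmc, Psmd or Psme followed by a digit, out of 18193 genes with a symbol of their own. Of these, 42 encode subunits, activators or assembly chaperones of the proteasome: 15 form the constitutive core, 23 the regulatory set and 4 the immunoproteasome and thymoproteasome. The other 2, Psmc3ip and Psme3ip1, encode proteins that are not subunits and are given apart. The probe set with the highest mean log2 signal over the 6 arrays stood for a gene, so the choice of genes used no difference between the genotypes. A transcript was tested where its probe set was called Present, detected above background, on at least 3 of the 6 arrays. That held for 40 of the 42 genes and for 10580 genes in all.

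The RNA came from livers of 21-day-old C57BL/6JBomTac mice in the fed state, separated from the mother in the morning. One group was ACBP-/- and lacked the acyl-CoA binding protein encoded by Dbi, here called knockout (KO). The other was +/+ and is here called wild type (WT). Each genotype was represented by 3 arrays, each hybridised with equal amounts of RNA from 5 mice, so that 15 mice per genotype entered and p-values measure the spread between pools. The sources used here do not give the part of Dbi that was deleted or say whether the deletion was limited to certain cells. Dbi itself read 5.37, 5.32 and 5.15 log2 units in the KO pools, against 15.94, 15.74 and 15.77 in the WT pools. It was called Present on 1 of the 3 KO arrays, against 3 of the 3 WT arrays, so the KO values lie near background and the measured difference of -10.54 gives the direction rather than an exact size. All 3 KO pools lay below all WT pools, with an exact two-sided permutation p of 0.1, the smallest that 3 pools against 3 can give.

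The proteasome is the protease of the cytosol and nucleus that degrades proteins marked with ubiquitin chains. Its core particle is a barrel of outer rings of alpha subunits, which gate the entry, and inner rings of beta subunits, of which Psmb5, Psmb6 and Psmb7 carry the proteolytic sites. A regulatory particle caps the barrel: its ATPases unfold the substrate and thread it in, and its other subunits bind and remove the ubiquitin. In cells exposed to interferon gamma, and in cells of the immune system, Psmb8, Psmb9 and Psmb10 are built into new barrels in place of Psmb5, Psmb6 and Psmb7. The barrels that result, called immunoproteasomes, cut peptides that suit presentation on class I molecules.

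In KO livers the transcripts of the constitutive proteasome differed little from those in WT livers, while the 3 immunoproteasome transcripts tested read lower in every KO pool. Psmb9 alone passed the test, at 77.8% of its WT level. By limma with Benjamini-Hochberg adjustment over all 22482 probe sets tested, 0 of the 40 genes were called higher in KO (adjusted p below 0.05) and 1 was called lower. Among all genes tested, 3.38% were called higher and 3.87% lower. Without adjustment, 7 of the 40 had a p below 0.05, against 2170 of the 10580 genes. Every KO pool lay above every WT pool for 5 of the 40 genes and below for 5, against 13.1% and 12.6% of all genes, so the shares called or without overlap were not far from those of the whole array. The medians of the log2 difference, KO minus WT, were 0.04 for 14 core genes, 0.07 for 23 regulatory genes and -0.28 for 3 immunoproteasome genes, against 0.02 for all genes tested. The difference lay above 0 for 28 of the 40 genes, against 54.2% of all genes tested. For 39 of the 40 genes the whole 95% confidence interval lay within 0.5 log2 units of 0, a ratio of 1.41 in either direction. The exception was Psmb9.

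**Figure D1:**
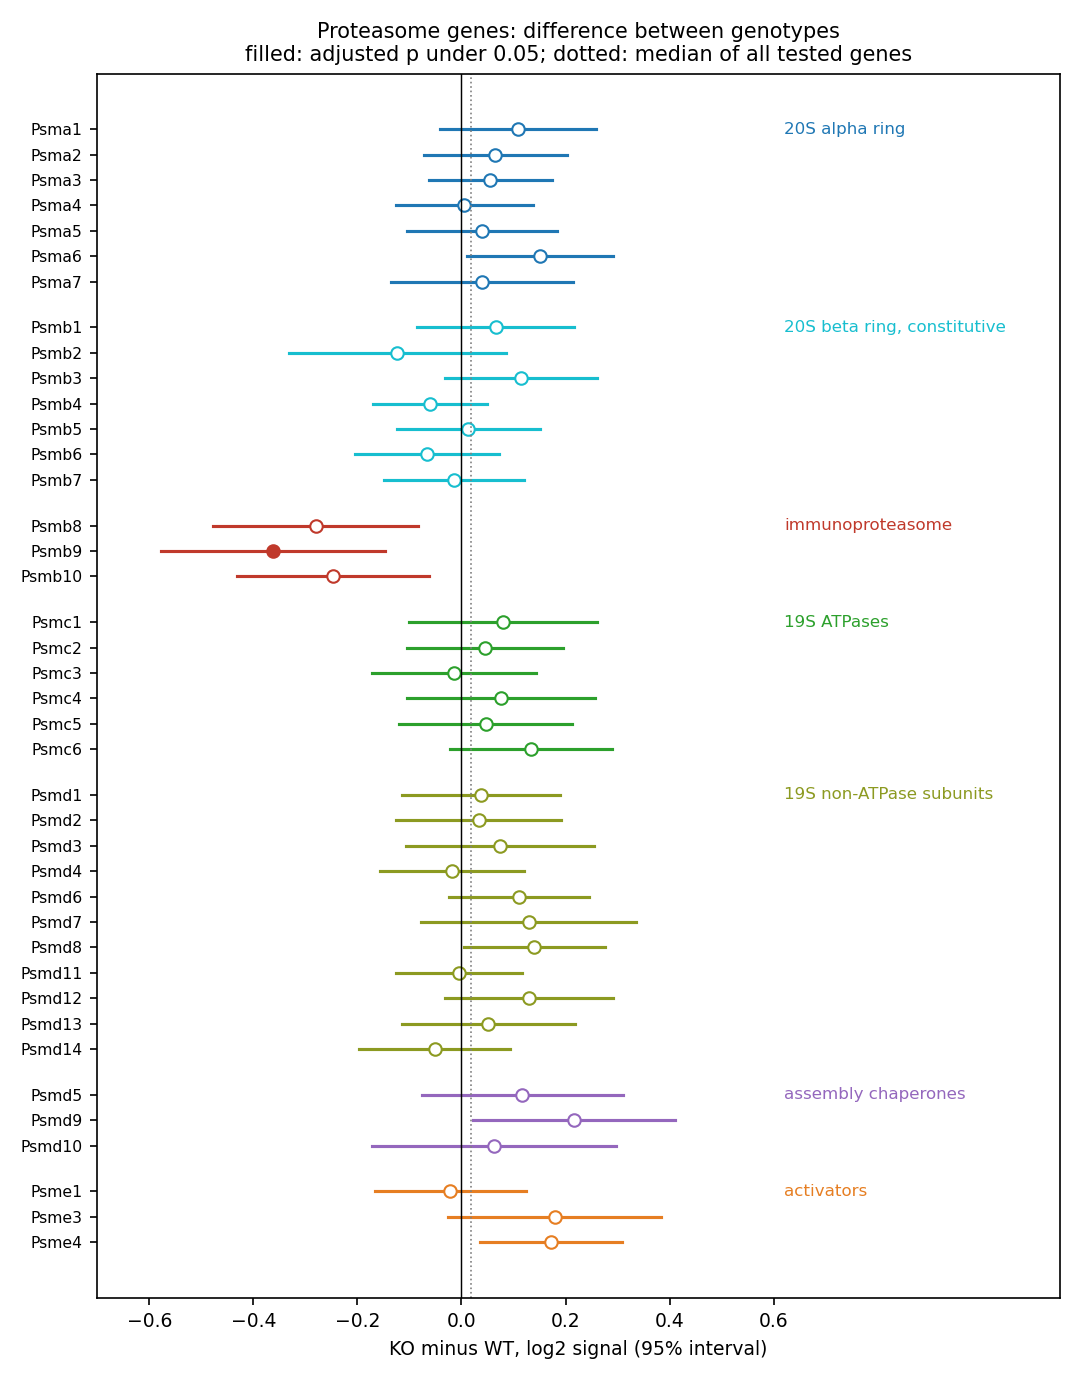
Difference KO minus WT on the log2 scale for each of the 40 proteasome genes tested, by class, as points with 95% confidence intervals from the limma fit. The 3 immunoproteasome genes lie between -0.36 and -0.25, while the core genes lie between -0.12 and 0.15 and the regulatory genes between -0.05 and 0.22.

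Psmb9 encodes the inducible counterpart of Psmb6, the subunit with caspase-like activity. Its log2 signal was 7.05, 7.13 and 7.07 in the KO pools, against 7.39, 7.42 and 7.53 in the WT pools. The lowest WT pool lay above the highest KO pool, and both groups were tight (KO 7.08 ± 0.04, WT 7.45 ± 0.07; SD, n = 3 pools each). Psmb9 fell by 0.36 on the log2 scale (standard error 0.10, 95% interval -0.58 to -0.15, limma adjusted p = 0.0461). This call sat close to the threshold and was lost in 9 of 15 other settings, among them the fits without KO pool 1, KO pool 2 or any one of the WT pools. Over the 15 settings the difference ranged from -0.39 to -0.30 and the adjusted p from 0.0190 to 0.221. Settings that change only the filter, variance model or block leave the difference as it was. Since the groups did not overlap, leaving out a single pool could not turn its sign either. The authors' deposited table gives a corrected p of 0.192 for Psmb9, the lowest among the 42 genes, and 0 of them with a corrected p below 0.05. In bulk RNA of liver, fewer cells of a type and less RNA per cell cannot be told apart.

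Psmb8 encodes the inducible counterpart of Psmb5, the subunit with chymotrypsin-like activity. It read 7.86, 7.94 and 7.84 log2 units in KO, against 8.11, 8.17 and 8.20 in WT. Again the groups did not overlap, with a difference of -0.28 (standard error 0.09, 95% interval -0.48 to -0.08) that missed the threshold (limma adjusted p = 0.0997). Psmb8 was called lower after quantile normalization (adjusted p = 0.0237) and without KO pool 3 (adjusted p = 0.0465), and in no other of the 15 settings. Psmb10, the inducible counterpart of the trypsin-like Psmb7, read 8.84, 8.99 and 8.93 log2 units in KO, against 9.10, 9.11 and 9.28 in WT. Its groups were likewise apart, the difference was -0.25 (standard error 0.09, 95% interval -0.43 to -0.06) and the limma adjusted p was 0.126. In 0 of the 15 settings was Psmb10 called, and its difference ranged from -0.28 to -0.19. Psmb11, whose product is built into the proteasome of the thymic cortex, was called Present on 0 of the arrays and was not tested.

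The constitutive catalytic subunits gave values close to 0. Psmb5 read 10.76, 10.67 and 10.75 log2 units in KO, against 10.75, 10.64 and 10.76 in WT. These pools interleaved, with a difference of 0.01 (standard error 0.07, limma adjusted p = 0.947). Psmb6 read 10.92, 10.93 and 10.80 in KO, against 11.03, 10.90 and 10.92 in WT, and overlapped as well, with a difference of -0.07 (95% interval -0.21 to 0.07, limma adjusted p = 0.668). Psmb7 read 11.24, 11.24 and 11.20 in KO, against 11.35, 11.23 and 11.14 in WT. Its difference was -0.01, with a 95% interval of -0.15 to 0.12 (limma adjusted p = 0.941).

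**Figure D2:**
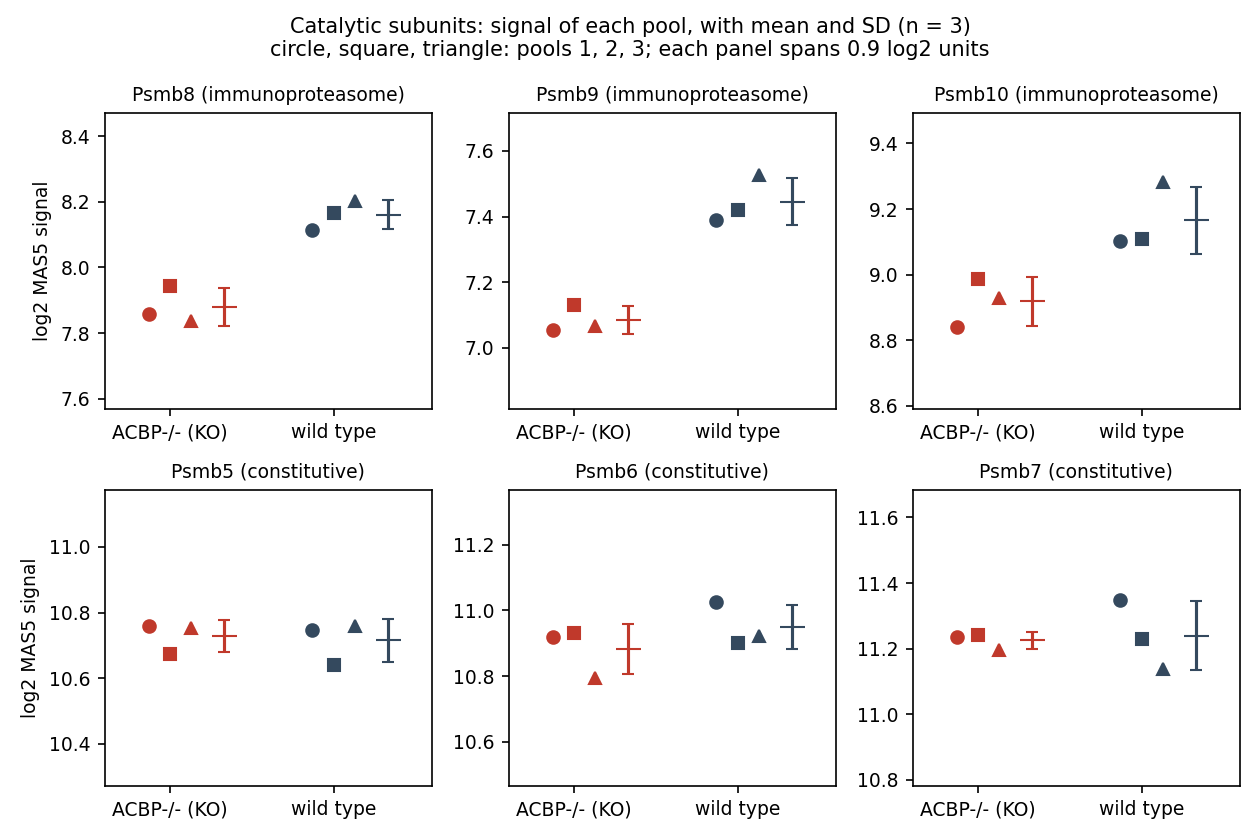
Log2 signal of the 3 inducible catalytic subunits and of the constitutive subunit each replaces, with 1 point per pool of 5 mice, KO pools left of WT pools, and bars at the group means. The KO points of Psmb8, Psmb9 and Psmb10 lie below all their WT points, whereas those of Psmb5, Psmb6 and Psmb7 overlap with WT.

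Within each pool, the log2 signal of an inducible subunit minus that of the subunit it replaces was compared between the genotypes. This quantity is free of any factor that scales a whole array, and only its change between genotypes can be read, since each probe set has its own brightness. For Psmb8 over Psmb5 it was -2.90, -2.73 and -2.92 in KO, against -2.63, -2.47 and -2.56 in WT, a difference of -0.29 that corresponds to 81.6% of the WT ratio. Psmb9 over Psmb6 gave -3.87, -3.80 and -3.73 in KO, against -3.64, -3.48 and -3.40 in WT, a difference of -0.30 or 81.5% of the WT ratio. Psmb10 over Psmb7 gave -2.40, -2.26 and -2.27 in KO, against -2.25, -2.12 and -1.86 in WT, a difference of -0.23 or 85.1% of the WT ratio. For Psmb8 over Psmb5 and Psmb9 over Psmb6 the KO pools lay clearly below all WT pools, and for Psmb10 over Psmb7 they did so narrowly. Each of the 3 ratios had an exact two-sided permutation p of 0.1, which stayed 0.1 after Benjamini-Hochberg adjustment over the 3 and is the smallest that 3 pools against 3 allow. The last ratio rested in part on WT pool 3, without which its difference was -0.12.

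The promoters of these genes are shown because the inducible and constitutive subunits are known to be driven by different factors: interferon signalling acts through the gamma-activated site and the interferon regulatory factor element, and the response to proteasome shortage through an antioxidant response element. Each is the stretch from 250 bases before to 50 bases after the gene's start on the gene's own strand, from RefSeq on build GRCm38.p6. Psmb8 lies at chr17:34197945-34198244 on the plus strand, Psmb9 at chr17:34187281-34187580 on the minus strand and Psmb10 at chr8:105938343-105938642 on the minus strand. Psmb5 lies at chr14:54617946-54618245 on the minus strand and Psmb6 at chr11:70525107-70525406 on the plus strand. Capitals mark a gamma-activated site in Psmb8, a CCAAT box (on the opposite strand) in Psmb9 and an antioxidant response element in Psmb5 and Psmb6, and Psmb10 held none of the motifs searched.
Psmb8: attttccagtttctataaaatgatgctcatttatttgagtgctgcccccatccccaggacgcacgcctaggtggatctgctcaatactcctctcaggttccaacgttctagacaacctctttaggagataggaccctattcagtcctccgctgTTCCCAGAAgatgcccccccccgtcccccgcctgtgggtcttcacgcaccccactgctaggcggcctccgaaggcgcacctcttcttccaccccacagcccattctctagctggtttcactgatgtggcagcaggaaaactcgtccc
Psmb9: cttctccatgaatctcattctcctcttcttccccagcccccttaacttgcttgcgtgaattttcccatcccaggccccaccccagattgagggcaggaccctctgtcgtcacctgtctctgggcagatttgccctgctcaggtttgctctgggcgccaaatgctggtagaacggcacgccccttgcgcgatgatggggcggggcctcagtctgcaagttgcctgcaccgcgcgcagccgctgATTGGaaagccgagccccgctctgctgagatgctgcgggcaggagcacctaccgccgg
Psmb10: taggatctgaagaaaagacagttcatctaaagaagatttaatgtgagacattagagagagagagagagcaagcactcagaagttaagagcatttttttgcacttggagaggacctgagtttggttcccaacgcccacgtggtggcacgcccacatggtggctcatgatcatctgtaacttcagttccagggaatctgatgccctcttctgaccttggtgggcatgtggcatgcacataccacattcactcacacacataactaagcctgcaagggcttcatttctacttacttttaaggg
Psmb5: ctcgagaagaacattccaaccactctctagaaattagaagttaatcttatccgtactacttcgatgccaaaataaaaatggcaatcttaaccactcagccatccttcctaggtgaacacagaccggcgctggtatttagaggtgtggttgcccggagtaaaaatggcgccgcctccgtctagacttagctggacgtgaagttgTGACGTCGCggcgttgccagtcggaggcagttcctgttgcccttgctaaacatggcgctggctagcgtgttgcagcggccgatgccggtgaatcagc
Psmb6: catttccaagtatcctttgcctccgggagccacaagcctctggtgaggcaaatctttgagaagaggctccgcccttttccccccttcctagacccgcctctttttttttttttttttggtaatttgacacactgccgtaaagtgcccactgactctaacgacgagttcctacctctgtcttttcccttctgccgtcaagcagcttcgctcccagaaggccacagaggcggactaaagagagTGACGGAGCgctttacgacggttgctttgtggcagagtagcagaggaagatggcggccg

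The motifs were searched on both strands as TTCNNNGAA (gamma-activated site), GAAANNGAA (interferon regulatory factor element), TGACNNNGC (antioxidant response element) and, for the CCAAT box, by its own letters. A gamma-activated site can overlap an interferon regulatory factor element, since both can end in GAA. Among 32851 RefSeq promoters of the same length, 8.3% held the gamma-activated site, 8.56% the interferon regulatory factor element, 12.4% the antioxidant response element and 37.4% the CCAAT box. Of the 42 proteasome genes 35 had a promoter in the RefSeq table, 11 of them tested core genes, 20 regulatory and 3 immunoproteasome. The gamma-activated site was in Psmb8 among the immunoproteasome genes, in Psmd2 among the regulatory genes and in 0 core genes. The antioxidant response element was in 2 core genes, Psmb5 and Psmb6, in 4 regulatory genes, Psmc6, Psmd9, Psmd12 and Psme4, and in 0 immunoproteasome genes. The CCAAT box was in 6 core, 6 regulatory and 1 immunoproteasome promoters, and the interferon regulatory factor element in 2 core and 4 regulatory promoters. A match describes letters and does not show that a factor binds. In the RefSeq order of chromosome 17, Psmb9, Tap1, Psmb8 and Tap2 stand side by side among class II genes, and the promoter windows of Psmb9 and Tap1, on opposite strands, share 275 bases. As neighbours of these genes, Tap1 and Tap2, the subunits of the peptide transporter, had differences of -0.12 (limma adjusted p = 0.672) and -0.14 (limma adjusted p = 0.658), with overlapping pools. Among the class II genes around them, H2-Ab1 had every KO pool below WT (-0.18, limma adjusted p = 0.422), as did H2-DMb2, which was not tested. H2-DMa (-0.23), H2-Ob (-0.54) and H2-Aa (-0.02) had overlapping pools and were not called.

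Of the alpha ring, 7 genes were tested, and the differences of all 7 lay between 0.01 and 0.15 with overlapping pools. The share above 0 among all genes tested, 54.2%, applies beside this and the counts of sign below. Psma8, which is known as a subunit of the testis, was called Present on 0 arrays. By limma 0 of the 7 were called, and 1 had an unadjusted p below 0.05. That one was Psma6, with log2 signals of 11.46, 11.31 and 11.23 in KO, against 11.18, 11.23 and 11.14 in WT. KO pools 1 and 2 lay above all WT pools and KO pool 3 lay among them, with a difference of 0.15 (standard error 0.07, 95% interval 0.01 to 0.29, limma adjusted p = 0.243). Psma1 differed by 0.11 (limma adjusted p = 0.470), and the smallest differences of the ring were those of Psma4, 0.01, and Psma5, 0.04.

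The constitutive beta ring of 7 genes had 3 differences above 0 and 4 below, with a median of -0.01, and by limma 0 were called and 0 had an unadjusted p below 0.05. Psmb4, a structural subunit, was the only core gene without overlap between the groups. It read 11.92, 11.91 and 11.84 log2 units in KO, against 11.95, 11.98 and 11.93 in WT. The gap between the groups was narrow, and the difference was -0.06 (standard error 0.05, 95% interval -0.17 to 0.05, limma adjusted p = 0.603). A second, dimmer probe set of Psmb4 gave 0.20 (limma adjusted p = 0.364), and with the mean of its probe sets the sign turned, to 0.070. The widest differences of the ring were those of the structural subunits Psmb2, -0.12 (limma adjusted p = 0.577), and Psmb3, 0.11 (limma adjusted p = 0.430), and Psmb1 followed at 0.07 (limma adjusted p = 0.703). Across the core, the confidence intervals spanned -0.33 to 0.29.

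The regulatory particle's 6 ATPases, Psmc1 to Psmc6, had differences between -0.01 and 0.13, of which 5 were above 0, and by limma 0 were called and 0 had an unadjusted p below 0.05. The highest was that of Psmc6, with 10.77, 10.70 and 10.51 log2 units in KO, against 10.55, 10.50 and 10.53 in WT. Its KO pools 1 and 2 stood above WT and KO pool 3 among the WT pools, with a difference of 0.13 (95% interval -0.02 to 0.29, limma adjusted p = 0.371). The next highest was Psmc1 at 0.08, and the lowest were Psmc3 at -0.01 and Psmc2 at 0.05.

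The 11 non-ATPase subunits, which form the scaffold and lid of the cap and handle the ubiquitin, gave a median of 0.05, with 8 differences above 0 and 3 below. By limma 0 were called, and 1 had an unadjusted p below 0.05. Psmd8, a lid subunit, read 10.67, 10.65 and 10.73 log2 units in KO, against 10.51, 10.56 and 10.57 in WT. The groups were apart, with a difference of 0.14 (standard error 0.06, limma adjusted p = 0.262). Psmd6, another lid subunit, read 10.81, 10.83 and 10.73 in KO, against 10.65, 10.68 and 10.70 in WT. It too showed no overlap, with a difference of 0.11 (standard error 0.06, limma adjusted p = 0.393). A dimmer probe set of Psmd6 gave 0.13 with overlapping pools (limma adjusted p = 0.504). In the opposite direction, Psmd14, the deubiquitinase of the lid, read 10.11, 10.12 and 10.04 in KO, against 10.14, 10.12 and 10.16 in WT. KO lay below WT only narrowly, with a difference of -0.05 (standard error 0.07, limma adjusted p = 0.769). The ubiquitin receptor Psmd4 differed by -0.02 (95% interval -0.16 to 0.12), and the lid subunit Psmd12 by 0.13 (limma adjusted p = 0.412).

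The chaperones Psmd5, Psmd9 and Psmd10 help to assemble the ATPase ring and leave it before the cap is complete. Their differences were 0.12, 0.22 and 0.06. Psmd9 had the highest difference of all 40 genes, with 8.70, 8.52 and 8.53 log2 units in KO, against 8.32, 8.35 and 8.43 in WT. No KO pool reached down to WT, with a difference of 0.22 (standard error 0.09, 95% interval 0.02 to 0.41), but the limma adjusted p was 0.222. A dimmer probe set of Psmd9 gave -0.17 (limma adjusted p = 0.668).

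Among the activators, which open the barrel without ATP or ubiquitin, Psme4 binds the ends of the core particle in the nucleus. Psme4 read 10.66, 10.65 and 10.62 log2 units in KO, against 10.48, 10.51 and 10.42 in WT. All KO pools lay above WT, with a difference of 0.17 (standard error 0.06, 95% interval 0.04 to 0.31, limma adjusted p = 0.154). Of its other 4 tested probe sets, 2 also had every KO pool above every WT pool, with differences of 0.19 and 0.16, while 2 overlapped and gave 0.22 and -0.07. Psme3, the nuclear activator of the same family as Psme1, read 8.12, 8.22 and 7.98 in KO, against 7.93, 7.90 and 7.96 in WT. Its KO pool 3 exceeded the highest WT pool by little, and the difference was 0.18 (95% interval -0.03 to 0.38, limma adjusted p = 0.364). A dimmer probe set of Psme3 gave 0.11 with overlapping pools (limma adjusted p = 0.761). Psme1, an activator that interferon gamma induces together with the immunoproteasome, read 10.31, 10.23 and 10.22 in KO, against 10.22, 10.29 and 10.32 in WT. It overlapped, unlike the 3 inducible catalytic subunits, with a difference of -0.02 (95% interval -0.17 to 0.12, limma adjusted p = 0.915). Its partner Psme2 had no probe set with that symbol alone. Over the whole regulatory set by limma, 0 of 23 were called and 3 had an unadjusted p below 0.05, and the confidence intervals spanned -0.20 to 0.41.

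The 42 genes had 88 probe sets in all, of which 72 were tested, 0 called higher and 1 lower. Over the whole array, 1277 of the 22482 probe sets tested were called in either direction. Of 18 genes with several tested probe sets, 7 had differences of both signs. The 2 genes that are not subunits were not called either. Psmc3ip, which takes part in meiotic recombination, differed by -0.33 (limma adjusted p = 0.315) and was Present on 1 KO array and 3 WT arrays. Psme3ip1, a protein that binds Psme3, differed by -0.05 (limma adjusted p = 0.822).

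The KO pools differed among themselves in a way shared by most core and regulatory genes. Taken as the median deviation of the genes from their own mean over the 6 pools, the core genes stood at 0.07, 0.05 and -0.06 in KO pools 1, 2 and 3, against -0.02, -0.01 and -0.03 in the WT pools. For the regulatory genes the values were 0.09, 0.06 and -0.07 in KO, against -0.04, -0.06 and -0.01 in WT. The median over all genes tested had the same order, with 0.09, 0.04 and -0.09 in KO, against -0.02, -0.01 and 0.00 in WT. The share of probe sets called Present was 51.1%, 49.7% and 48.4% in KO pools 1, 2 and 3, against 49.1% to 49.7% in WT. KO pool 1 read above KO pool 3 for 36 of the 37 core and regulatory genes and for 80.8% of all genes. Without KO pool 3, limma called 2 core genes higher, Psma1 (adjusted p = 0.0320) and Psma6 (adjusted p = 0.0398), and 3 regulatory genes, Psmc6 (0.0287), Psmd7 (0.0358) and Psmd12 (0.0396). That fit called 10.6% of all genes tested higher, so these 5 of 37 genes are near the share of the whole array. The immunoproteasome genes did not show this order: their medians were -0.20, -0.07 and -0.18 in KO, against 0.09, 0.15 and 0.24 in WT.

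**Figure D3:**
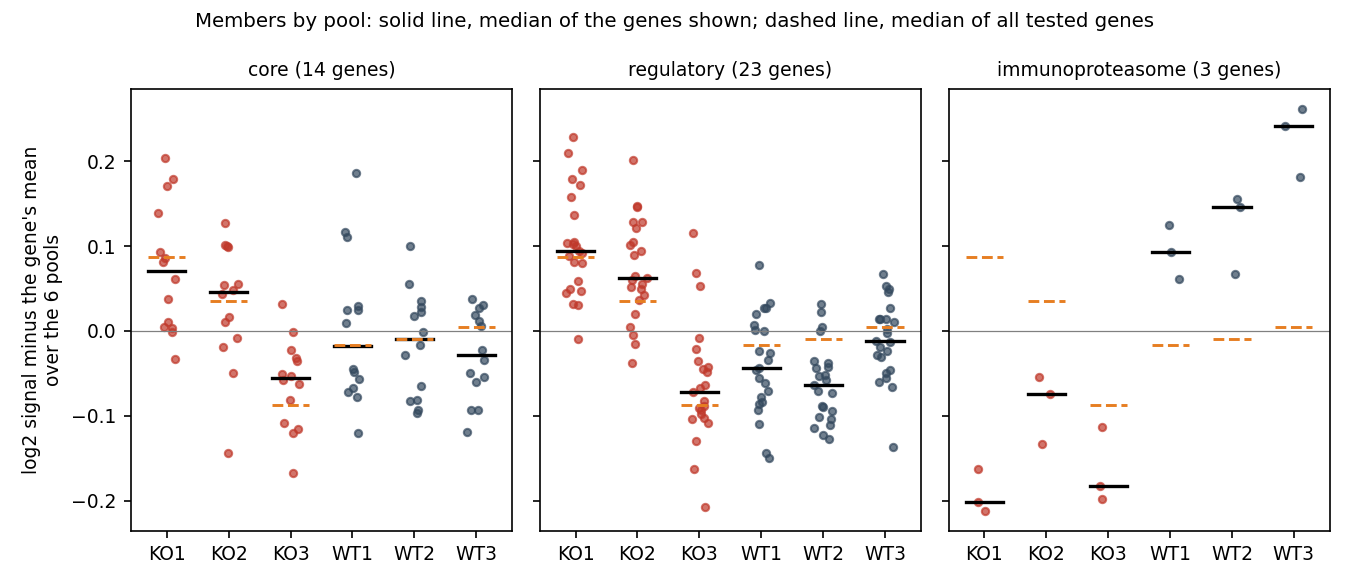
Deviation of each proteasome gene from its mean over the 6 pools (log2), by class and pool, KO pools left of WT pools. KO pool 3 is the lowest KO pool for 32 of the 37 core and regulatory genes, against 70.4% of all genes tested. The immunoproteasome genes are below 0 in the KO pools and above 0 in the WT pools.

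Among the genes that act with the proteasome none was called, against 3.38% called higher and 3.87% called lower among all genes tested. In lists this short a count of 0 is not far from those shares. Of 7 factors that assemble or inhibit it, limma called 0, and the median difference was -0.03. Of 12 associated ubiquitin receptors, deubiquitinases and shuttles, 0 were called, with a median of 0.04. Of 4 genes of ubiquitin supply and of the p97 segregase, 0 were called, with a median of 0.08. Of 7 regulators of proteasome gene transcription, 0 were called and the median was 0.17. Every KO pool lay above WT for 3 of these genes and below for 2, against 13.1% and 12.6% of all genes tested. At an unadjusted p below 0.05, 4 of these 7 regulators passed, and 0 genes of the other lists just named, against 2170 of the 10580 genes tested. The values of 6 of these regulators follow, chosen after they were seen. Nfe2l1, the main activator of proteasome genes when proteasome activity is short, differed by 0.12 (limma adjusted p = 0.615). Ngly1, the glycanase that Nfe2l1 needs for activity, read 9.24, 9.19 and 9.06 log2 units in KO, against 8.87, 8.96 and 8.98 in WT, without overlap (0.23, limma adjusted p = 0.148). Nfya, a subunit of the factor that binds the CCAAT box, read 5.55, 5.61 and 5.66 in KO, against 6.11, 6.04 and 6.01 in WT, also without overlap (-0.45, limma adjusted p = 0.0520). The other subunits of that factor went in opposite directions, each without overlap: Nfyb was at -0.22 (limma adjusted p = 0.216) and Nfyc at 0.17 (limma adjusted p = 0.312). Nfe2l2, which acts through the antioxidant response element, was at 0.21, with every KO pool above WT (limma adjusted p = 0.184).

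Genes that interferon gamma induces, or that present peptides on class I molecules, were set beside the immunoproteasome. Of 18 such genes tested, limma called 0 higher and 2 lower, 15 differences lay below 0 and the median was -0.10. Among all genes tested, 3.38% were called higher and 3.87% lower, 4845 of 10580 differences lay below 0 and the median was 0.02. Every KO pool lay below every WT pool for 5 of the 18, and above for 0, against 12.6% and 13.1% of all genes tested. Ifi47, an interferon-induced GTPase, read 8.87, 9.05 and 8.86 log2 units in KO, against 9.19, 9.32 and 9.37 in WT. The groups were apart, and Ifi47 fell by 0.37 (standard error 0.09, limma adjusted p = 0.0186). Iigp1, a GTPase of the same family, read 12.06, 12.21 and 12.15 in KO, against 12.35, 12.46 and 12.33 in WT. It was likewise apart and fell by 0.24 (standard error 0.05, limma adjusted p = 0.0135). Further genes of the list, chosen after their values were seen, were not called. Cxcl9 at -0.40 (limma adjusted p = 0.102), Gbp3 at -0.24 (limma adjusted p = 0.268) and Nlrc5 at -0.20 (limma adjusted p = 0.370) had every KO pool below WT. Igtp at -0.002 (limma adjusted p = 0.993) and Irgm1 at 0.03 (limma adjusted p = 0.936), GTPases of the family of Ifi47 and Iigp1, had overlapping pools. In all, 3 of the 18 differences lay above 0. The class I genes were close to 0, with B2m at -0.02, H2-K1 at -0.06 and H2-D1 at -0.03, and Irf1, a transcription factor that interferon gamma induces, was at 0.14 (limma adjusted p = 0.481).

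**Figure D4:**
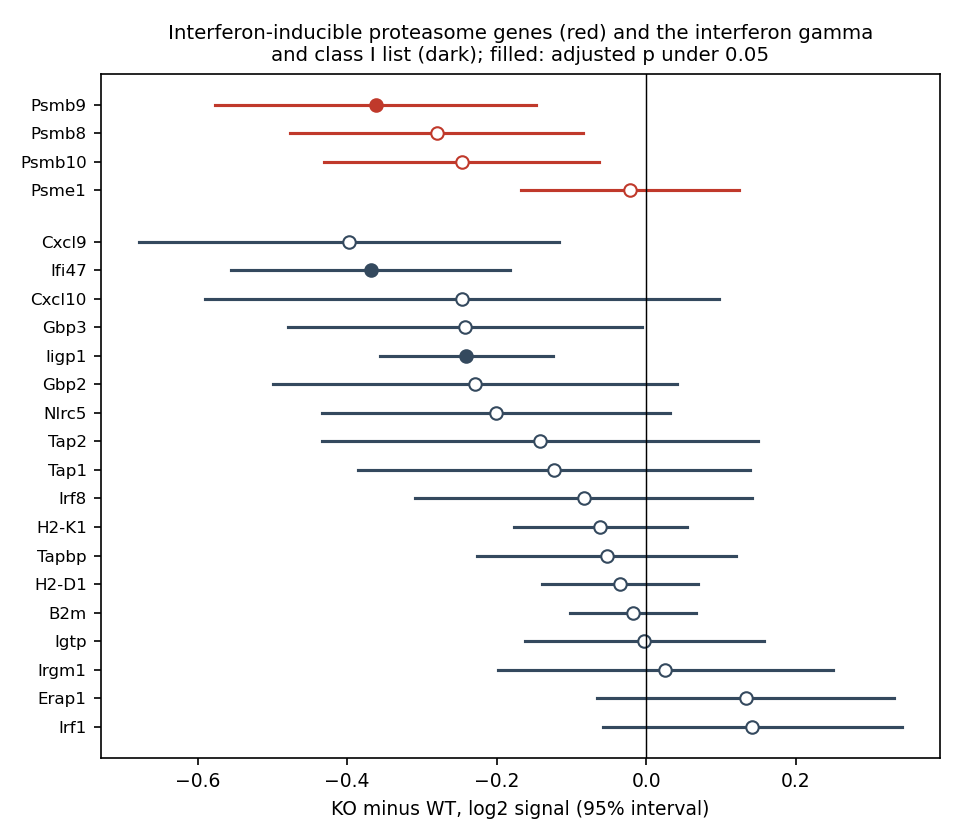
Difference KO minus WT (log2) with 95% confidence intervals for the 3 immunoproteasome genes, the activator Psme1 (-0.02) and the genes of interferon gamma response and class I antigen presentation. Ifi47 at -0.37 and Iigp1 at -0.24 were called lower with Psmb9 at -0.36, whereas B2m, H2-K1 and H2-D1 lie between -0.06 and -0.02.

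Because immune cells carry much of the immunoproteasome of a tissue, the markers of the cell types a liver can hold were read alongside. Of 8 hepatocyte markers tested 0 were called, with a median of -0.01. Of 11 lymphocyte markers with a probe set, 2 were Present on enough arrays to be tested, Cd79b and Ms4a1, and 0 were called, at -0.36 and -0.35. Another 5, Cd3d, Cd3e, Cd79a, Ighm and Ltb, were Present on 0 arrays, and the summed signal of the 11, much of it from probe sets not called Present, was 304.8 to 431.3 in KO, against 384.6 to 466.1 in WT. The summed signal of Cd79b and Ms4a1 alone was 67.6 to 79.4 in KO, against 82.3 to 111 in WT, without overlap. Of 11 markers of Kupffer cells and macrophages 1, Marco, a scavenger receptor, was called lower (-0.44, limma adjusted p = 0.0215), the median was -0.02, and the summed signal was 10090 to 10230 in KO, against 9666 to 11080 in WT. Of 4 dendritic cell and class II markers tested 0 were called, with a summed signal over the list of 1074 to 1090 in KO, against 1050 to 1297 in WT, and Flt3 and Xcr1 were Present on 0 arrays. Of 4 neutrophil markers tested 2 were called higher, S100a8 (0.43) and S100a9 (0.65). Ngp at 0.28 (limma adjusted p = 0.198) and Camp at -0.04 (limma adjusted p = 0.938) were not called. Among the neutrophil markers not tested, Elane, Present on 0 arrays, differed by -0.34 with every KO pool below WT. Mpo differed by -0.35 and Ltf by 0.01. The summed signal of the neutrophil list was 573.4 to 647.1 in KO, against 487.7 to 557.4 in WT, without overlap. Of 5 endothelial markers tested 1, Clec4g, was called lower (-0.27, limma adjusted p = 0.0387). Pecam1 at -0.36, Stab2 at -0.13, Kdr at -0.07 and Lyve1 at 0.21 were not called. The endothelial list had a median of -0.13 and a summed signal of 3791 to 3937 in KO, against 4189 to 4329 in WT, without overlap. Of 4 stellate cell and fibroblast markers tested 1, Col3a1, was called lower (-0.26, limma adjusted p = 0.0364). Lrat at -0.27, Col1a1 at -0.20 and Dcn at 0.05 were not called, and the median was -0.23. Des, Present on 0 arrays, differed by -0.05. The summed signal of the list, with Des in it, was 6334 to 6942 in KO, against 6997 to 7185 in WT, without overlap. In such sums bright probe sets weigh most. Alas2, the 1 erythroid marker tested, was not called (-0.24, limma adjusted p = 0.277), and Hba-a1 was Present on 0 arrays. The summed signal of the erythroid list, with Hba-a1 in it, was 416.9 to 517.0 in KO, against 457.4 to 600.4 in WT. At an unadjusted p below 0.05, 1 of the 2 lymphocyte, 1 of the 11 macrophage, 3 of the 4 neutrophil, 2 of the 5 endothelial, 2 of the 4 stellate and 1 of 1 erythroid markers passed, and 0 hepatocyte and 0 dendritic cell markers. Over all genes tested 2170 of 10580 passed in this way, and 3.38% were called higher and 3.87% lower. All 7 markers of dividing cells tested (Mki67, Top2a, Ccna2, Cdk1, Birc5, Mcm2 and Mcm6) were called lower, with differences between -1.79 and -0.81, a median of -1.47 and a summed signal of 658.8 to 857.1 in KO, against 1881 to 2182 in WT. The part of any of these lists in the values of Psmb8, Psmb9 and Psmb10 was not tested.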

How the data were processed

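RNA of 3 KO and 3 WT liver pools was measured on Affymetrix arrays. The authors deposited MAS5 signals as log2 values with Present, Marginal or Absent calls and detection p-values, and MAS5 is named in the submitters' processing notes, with no version given in the sources used here. Their deposited comparison holds p-values and an absolute fold (a linear ratio) per probe set. The deposited log2 values were used without further normalization or pseudocount; a pseudocount of 1 had been planned for linear signals. The 64 control probe sets of 45101 were left out, and probe sets Present on at least 3 arrays were kept, which left 22482. Array number limits the precision, and MAS5 signals near background vary widely on the log2 scale.

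Symbols came from the platform annotation: 34945 probe sets had 1 symbol, 932 had several and 9160 had none. A proteasome probe set with 2 symbols was left out. The brightest probe set stood for a gene. KO was compared with WT in R 4.3.3 with the linear models of limma 3.58.1, moderated by eBayes with a trend on intensity. P-values were adjusted by the Benjamini-Hochberg method across the 22482 probe sets, and a gene was called at an adjusted p below 0.05. Single ratios were compared by exact permutation. The code was tested on simulated data with the spread of the 22482 probe sets. It called 1.6% of changes of 0.25 log2 units, 31.6% of 0.5 and 82.8% of 1. A count of 0 called therefore does not show that changes of 0.25 were absent. These shares are averages over all probe sets tested and were not taken for the proteasome genes alone. The median standard error was 0.07 for the 40 proteasome genes, against 0.11 for all genes tested.

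Proteasome genes named with values were those called or without overlap between groups, the catalytic subunits, the 2 highest and 2 lowest differences of each class, and those called without KO pool 3. Genes of the other lists were named if called, if they were the only tested markers of a list or Present on 0 arrays, as neighbours of Psmb8 and Psmb9, or where the text says that they were chosen after their values were seen. All neutrophil, endothelial and stellate cell markers with a probe set were given, since each of these lists went in both directions. Genes and lists were chosen with earlier results of these data known. The alternatives changed the pseudocount (16), filter, normalization, variance model, block, pools and probe sets. Promoters came from RefSeq (GRCm38.p6). No table of proteins was used here.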

Additional observations from a re-analysis of the deposited data

How the results depend on the processing

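The number of probe sets called was 1277, against 378 without the intensity trend and 639 (without WT pool 1) to 3010 (without KO pool 3) when single pools were left out. Of the immunoproteasome genes 1 was called lower, against 2 after quantile normalization and 0 with no filter, with median centring, without the intensity trend or with the replicate block. Leaving out single pools gave 0 to 2, with 0 for every pool except KO pool 3, which gave 2. Psmb9 had an adjusted p of 0.0942 with no filter, 0.139 with median centring (where its difference was -0.30) and 0.0911 without the trend; the cause was not tested. The number of core genes called higher, 0 in the fit reported, was 0 to 2 when single pools were left out, and that of regulatory genes 0 to 3, each highest without KO pool 3. Median centring moved the median of the core genes to 0.10, against 0.04, and that of all genes to 0.08, against 0.02. When single pools were left out, the core median ranged from 0.016 (without KO pool 1) to 0.073 (without KO pool 3), and that of all genes from -0.016 to 0.067 with the same pools left out. The regulatory median lay between 0.03 and 0.13 in all 15 settings. Psmb4 reversed to 0.070, against -0.06, with the mean of its probe sets, since its 2 tested probe sets differ in sign. Over 40 genes and 15 settings, 9 of 600 values lost a call, 7 gained one and 1 reversed. The other 583 kept their side of the threshold. They also kept their direction, or were under 1 standard error in a gene called in neither setting. A change of filter, variance model or block alone leaves a difference as it was, so its direction could not turn there. The pool numbers did not pair the pools (correlations of -0.03, -0.01 and -0.08), and with the replicate block 1370 probe sets were called and the adjusted p of Psmb9 was 0.0682.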
